A study of Homo sapiens with 4 samples.

Results

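HepG2-Twist1/Bcl-2 cells were compared with HepG2-Bcl-2 cells for the 279 miRNAs, of 1212 on the array, that reached 32 in either line in the authors' normalized table. HepG2 is an established human hepatocellular carcinoma line. HepG2-Twist1/Bcl-2 had been transfected with a pcDNA-Twist1 and a pcDNA-Bcl-2 plasmid, and HepG2-Bcl-2 with the pcDNA-Bcl-2 plasmid alone, so the pair shares Bcl-2 and differs in Twist1. The RNA of HepG2-Twist1/Bcl-2 carried the dye Cy3 and RNA of HepG2-Bcl-2 the dye Cy5, and both were hybridised together on 1 two-colour array. The dyes were not swapped, so line and dye differ together and cannot be told apart. A second array held HepG2-Twist1 (pcDNA-Twist1, Cy5) and HepG2-vector (Cy3, named for the vector in its title, with no construct given), the pair that differs in Twist1 without added Bcl-2. Each line had 1 sample, and the sources do not say whether a line was 1 clone or a pool of transfected cells. A miRNA array does not measure the messages of Twist1 or Bcl-2, so the transgenes could not be checked here. There was therefore no test between lines, and each SD below is that of 3 repeat spots of a miRNA on the array, which is technical.

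A miRNA is a short RNA that guides Argonaute proteins to messenger RNAs, mostly by pairing of its seed, bases 2 to 8 from the 5′ end, and lowers the stability or translation of those messages. miRNAs with the same seed form a family with overlapping targets, and miRNAs cut from neighbouring hairpins of a shared primary transcript form a cluster. Twist1 is a basic helix-loop-helix transcription factor that drives epithelial-mesenchymal transition (EMT), the loss of epithelial contacts in favour of a motile state. Bcl-2 is a mitochondrial protein that restrains apoptosis.

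The mature sequences below, from RefSeq on GRCh38.p14, belong to called miRNAs and to relatives that were not called. They are written 5′ to 3′ with the seed in capitals. The first group holds lower miRNAs outside the miR-17 seed family, and only the miR-29 pair within it shares a seed.
miR-146a-5p: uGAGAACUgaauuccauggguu
miR-424-5p: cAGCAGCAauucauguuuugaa
miR-200b-3p: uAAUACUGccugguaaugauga
miR-29a-3p: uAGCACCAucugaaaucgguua
miR-29c-3p: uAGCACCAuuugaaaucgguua
miR-21-5p: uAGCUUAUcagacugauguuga

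The miR-17 seed family and the miR-18 pair are shown because 5 of 6 and both of their members were lower, whereas miR-93-5p, with the same seed, was not. Counted from the 5′ end, miR-17-5p differed from miR-93-5p by U10G, A11U, C12U and A13C, and from miR-106a-5p by C1A alone.
miR-17-5p: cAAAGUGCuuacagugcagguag
miR-20a-5p: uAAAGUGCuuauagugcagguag
miR-20b-5p: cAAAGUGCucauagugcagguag
miR-106a-5p: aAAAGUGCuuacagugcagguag
miR-106b-5p: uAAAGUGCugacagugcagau
miR-93-5p: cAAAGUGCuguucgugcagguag
miR-18a-5p: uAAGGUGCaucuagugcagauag
miR-18b-5p: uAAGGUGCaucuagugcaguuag

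The next sequences are those of miRNAs that were higher, beside a relative, except for miR-4281. let-7e-5p differed from let-7a-5p by U9G, and miR-98-5p differed from let-7a-5p by G11A and A19U, and cross-hybridisation between such probes was not tested. Over the 18 bases compared, miR-1260b and miR-1260a differed by A9U.
let-7a-5p: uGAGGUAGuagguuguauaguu
let-7e-5p: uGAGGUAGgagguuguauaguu
miR-98-5p: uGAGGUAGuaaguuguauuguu
let-7i-5p: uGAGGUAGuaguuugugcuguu
miR-26b-5p: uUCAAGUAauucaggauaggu
miR-26a-5p: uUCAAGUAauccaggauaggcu
miR-193a-3p: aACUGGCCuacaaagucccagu
miR-193b-3p: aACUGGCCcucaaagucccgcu
miR-1260b: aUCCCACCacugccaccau
miR-1260a: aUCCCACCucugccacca
miR-4281: gGGUCCCGgggagggggg

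As scanned, the 20 empty spots had a median of 159 in HepG2-Twist1/Bcl-2 against 51.7 in HepG2-Bcl-2, and all miRNA spots had medians of 148 and 50.4, so most probes were dim in both lines. After background correction and loess, described here as normalized intensity, the empty spots lay between 31.9 and 45.7 in HepG2-Twist1/Bcl-2 and between 21.2 and 43.2 in HepG2-Bcl-2. Of the 279 miRNAs, 216 were above every empty spot in both lines, 10 only in HepG2-Twist1/Bcl-2, 51 only in HepG2-Bcl-2 and 2 in neither. By the authors' values 219 reached 32 in HepG2-Twist1/Bcl-2, 254 did so in HepG2-Bcl-2 and 194 in both, which left 25 that were chosen through HepG2-Twist1/Bcl-2 alone and 60 through HepG2-Bcl-2 alone. Just inside that threshold, miR-498-5p stood at 25.8 in HepG2-Twist1/Bcl-2 against 32.1 in HepG2-Bcl-2 by the authors' values, and just outside it miR-514b-5p stood at 19.3 in HepG2-Twist1/Bcl-2 against 31.5 in HepG2-Bcl-2.

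The tissue label was checked against miRNAs of liver and of other cell types. miR-122-5p, the defining miRNA of hepatocytes, was at 24.6 in HepG2-Twist1/Bcl-2 against 30.4 in HepG2-Bcl-2, not above the empty spots of either, and neither was miR-885-5p. Of the liver list, miR-192-5p, miR-194-5p and miR-193b-3p were above the empty spots in both lines. None of the 7 pluripotency miRNAs on the array, among them the miR-302 group, was above the empty spots in either line, and of 5 mesenchymal probes (miR-143, miR-145, miR-199a and miR-214) only miR-145-5p was, at 48.3 in HepG2-Bcl-2. Of the blood list 1 of 6 was measured, miR-486-5p. The 3 measured muscle miRNAs, miR-1-3p, miR-133a-3p and miR-133b, were below the empty spots of HepG2-Twist1/Bcl-2, with log2 ratios between -0.66 and -0.64. The neuronal list had 4 measured members, among them miR-128-3p with 926 in HepG2-Twist1/Bcl-2 against 995 in HepG2-Bcl-2.

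The log2 ratio of HepG2-Twist1/Bcl-2 over HepG2-Bcl-2 had a median of -0.09 over the 279 miRNAs, with quartiles at -0.53 and 0.34. All 3 spots were above 0 for 102 miRNAs, all 3 below 0 for 124, and 53 had spots on both sides. A miRNA is called higher or lower here when its mean ratio was at least 2-fold, which is 1 on the log2 scale, and its 3 spots had the same sign. By this rule 21 were higher (7.53% of the 279) and 29 were lower (10.4%). Over all 1212 miRNAs on the array, the same calls made up 1.73% and 2.39%, since none of the other 933 passed. Of the 194 at 32 or more in both lines by the authors' values, 19 were higher and 18 lower. Of the 60 chosen through HepG2-Bcl-2 alone, 11 were lower and 0 higher. Of the 25 chosen through HepG2-Twist1/Bcl-2 alone, 2 were higher and 0 lower. The direction of calls in these last groups partly follows from the filter. Among the 139 miRNAs whose normalized intensity was at least 100 in each line, 15 were higher (10.8%) and 13 were lower (9.35%). The median spot SD was 0.16 over the 279. On the other array the same 279 miRNAs gave 0 higher and 5 lower calls (1.79%) for HepG2-Twist1 over HepG2-vector, and whether the arrays differ in this was not tested.

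The miRNAs with the highest intensities were mostly not called. miR-3665 had 23336 in HepG2-Twist1/Bcl-2 against 33869 in HepG2-Bcl-2 (log2 ratio -0.54 ± 0.27). let-7f-5p had 19560 in HepG2-Twist1/Bcl-2 against 16456 in HepG2-Bcl-2 (0.25 ± 0.16), and miR-23b had 16350 in HepG2-Twist1/Bcl-2 against 23059 in HepG2-Bcl-2 (-0.50 ± 0.10).

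**Figure D1:**
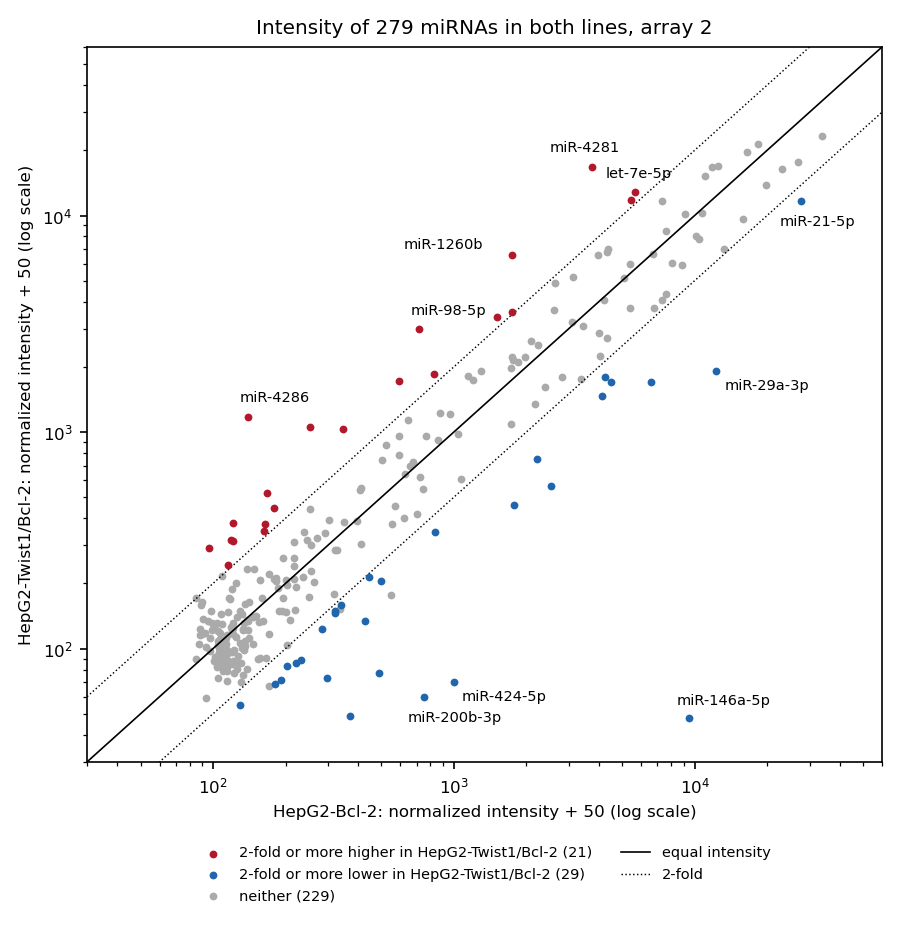
Normalized intensity plus the offset of 50 (log scales) of the 279 miRNAs in HepG2-Twist1/Bcl-2 (vertical) and HepG2-Bcl-2 (horizontal). The 21 higher miRNAs lie above the upper dotted 2-fold line and the 29 lower ones below the other, with miR-146a-5p farthest from the line of equal intensity.

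Among the lower miRNAs, 12 were at or below the empty spots in HepG2-Twist1/Bcl-2, so their fold is a bound, the intensity in HepG2-Bcl-2 over the brightest empty spot of HepG2-Twist1/Bcl-2. miR-146a-5p, an NF-κB-induced miRNA that dampens innate immune signalling, had a normalized intensity of -2.10 in HepG2-Twist1/Bcl-2 against 9445 in HepG2-Bcl-2. It was thus at least 207-fold lower in HepG2-Twist1/Bcl-2, with spot log2 ratios of -7.32, -7.56 and -8.06. miR-146b-5p, which has the same seed, was at -1.11 in HepG2-Twist1/Bcl-2 against 320 in HepG2-Bcl-2, at least 6.99-fold lower. Both members of this seed group were therefore below the empty spots in HepG2-Twist1/Bcl-2 and above them in HepG2-Bcl-2. On the other array miR-146a-5p was dim in both lines, at 15.0 in HepG2-Twist1 against 14.9 in HepG2-vector, a log2 ratio of 0.00.

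miR-424-5p, a member of the miR-15/16 family that was placed on the list of miRNAs linked to Twist1, was at 20.2 in HepG2-Twist1/Bcl-2 against 948 in HepG2-Bcl-2, at least 20.7-fold lower. miR-200b-3p, which represses the EMT factors ZEB1 and ZEB2, was at 10.1 in HepG2-Twist1/Bcl-2 against 703 in HepG2-Bcl-2, at least 15.4-fold lower. miR-155, a miRNA of activated immune cells, was at 22.9 in HepG2-Twist1/Bcl-2 against 247 in HepG2-Bcl-2, at least 5.40-fold lower. All 3 were thus seen above the empty spots only in HepG2-Bcl-2. On the other array their log2 ratios were -0.12 for miR-424-5p, -0.01 for miR-200b-3p and -0.02 for miR-155. There miR-424-5p was at 55.5 in HepG2-Twist1 against 65.8 in HepG2-vector. miR-200b-3p was at 14.2 in HepG2-Twist1 against 14.6 in HepG2-vector, and miR-155 at 17.8 against 18.7. Both were dim in each of these lines, so their ratios near 0 do not show an unchanged level.

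The miR-29 family represses collagens and DNA methyltransferases, and 2 of its 3 members were lower, where 10.4% of all 279 were. miR-29a-3p had 1859 in HepG2-Twist1/Bcl-2 against 12240 in HepG2-Bcl-2, a log2 ratio of -2.68 ± 0.23 (SD of 3 spots), or 6.40-fold. miR-29c-3p was at 27.4 in HepG2-Twist1/Bcl-2, below the empty spots, and at 439 in HepG2-Bcl-2, at least 9.59-fold lower. miR-29b-3p was dim in both lines, with 20.6 in HepG2-Twist1/Bcl-2 against 64.7 in HepG2-Bcl-2, and was not called (log2 ratio -0.70 ± 0.08). By the authors' values miR-29c-3p and miR-29b-3p entered the 279 through HepG2-Bcl-2 alone, so their direction partly follows from the filter. miR-29a-3p and miR-29c-3p differ in sequence at C10U only, and cross-hybridisation between their probes was not tested.

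The miR-17 seed family consists of growth-promoting miRNAs that MYC activates. Its median log2 ratio was -1.53, against -0.09 over all 279 miRNAs. Of its 6 members 5 were lower, where 10.4% of all 279 were. miR-20b-5p had 410 in HepG2-Twist1/Bcl-2 against 1731 in HepG2-Bcl-2 (log2 ratio -2.0 ± 0.34). miR-20a-5p had 1654 in HepG2-Twist1/Bcl-2 against 6544 in HepG2-Bcl-2 (-1.97 ± 0.37). miR-106b-5p, miR-106a-5p and miR-17-5p followed at -1.56, -1.5 and -1.40, so the 5 called members lay between -2.0 and -1.40. The exception was miR-93-5p, with 2106 in HepG2-Twist1/Bcl-2 against 1712 in HepG2-Bcl-2, a log2 ratio of 0.29 ± 0.01. The sequences of miR-17-5p, miR-20a-5p, miR-20b-5p and miR-106a-5p differ at few bases, and cross-hybridisation between their probes was not tested. The family's median stayed below 0 under every scaling tried.

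The miR-18 and miR-19 families had 3 measured members, and all 3 were lower, where 10.4% of all 279 were. miR-18a-5p had 84.6 in HepG2-Twist1/Bcl-2 against 378 in HepG2-Bcl-2 (log2 ratio -1.67 ± 0.18). miR-18b-5p was at 32.8 in HepG2-Twist1/Bcl-2, within the empty spots, against 153 in HepG2-Bcl-2, at least 3.34-fold lower. By the authors' values miR-18b-5p entered the 279 through HepG2-Bcl-2 alone. miR-19b-3p had 95.9 in HepG2-Twist1/Bcl-2 against 270 in HepG2-Bcl-2 (log2 ratio -1.13 ± 0.15). Of the 50 called miRNAs, this was the only one called in the same direction on both arrays, with -1.32 for HepG2-Twist1 over HepG2-vector.

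By position (GRCh38.p14) these miRNAs come from 3 clusters. Over all 279 miRNAs 10.4% were lower. In the miR-17/92a-1 cluster (chr13:91350605-91351391, plus strand, within the noncoding host gene MIR17HG), 4 of 6 measured miRNAs were lower. In the paralogous miR-106a/miR-363 cluster (chrX:134169538-134170278, minus strand), 4 of 5 were lower, and the mature miR-19b-3p and miR-92a-3p are products of both. miR-92a-3p, with 8006 in HepG2-Twist1/Bcl-2 against 10127 in HepG2-Bcl-2, was not called (log2 ratio -0.34 ± 0.02), although its hairpin lies within the same clusters. In the miR-106b/25 cluster (chr7:100093560-100094074, minus strand, in an intron of MCM7), miR-106b-5p was lower, while miR-93-5p, both arms of miR-25 and the 3p arm of miR-106b had log2 ratios between 0.14 and 0.40.

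**Figure D2:**
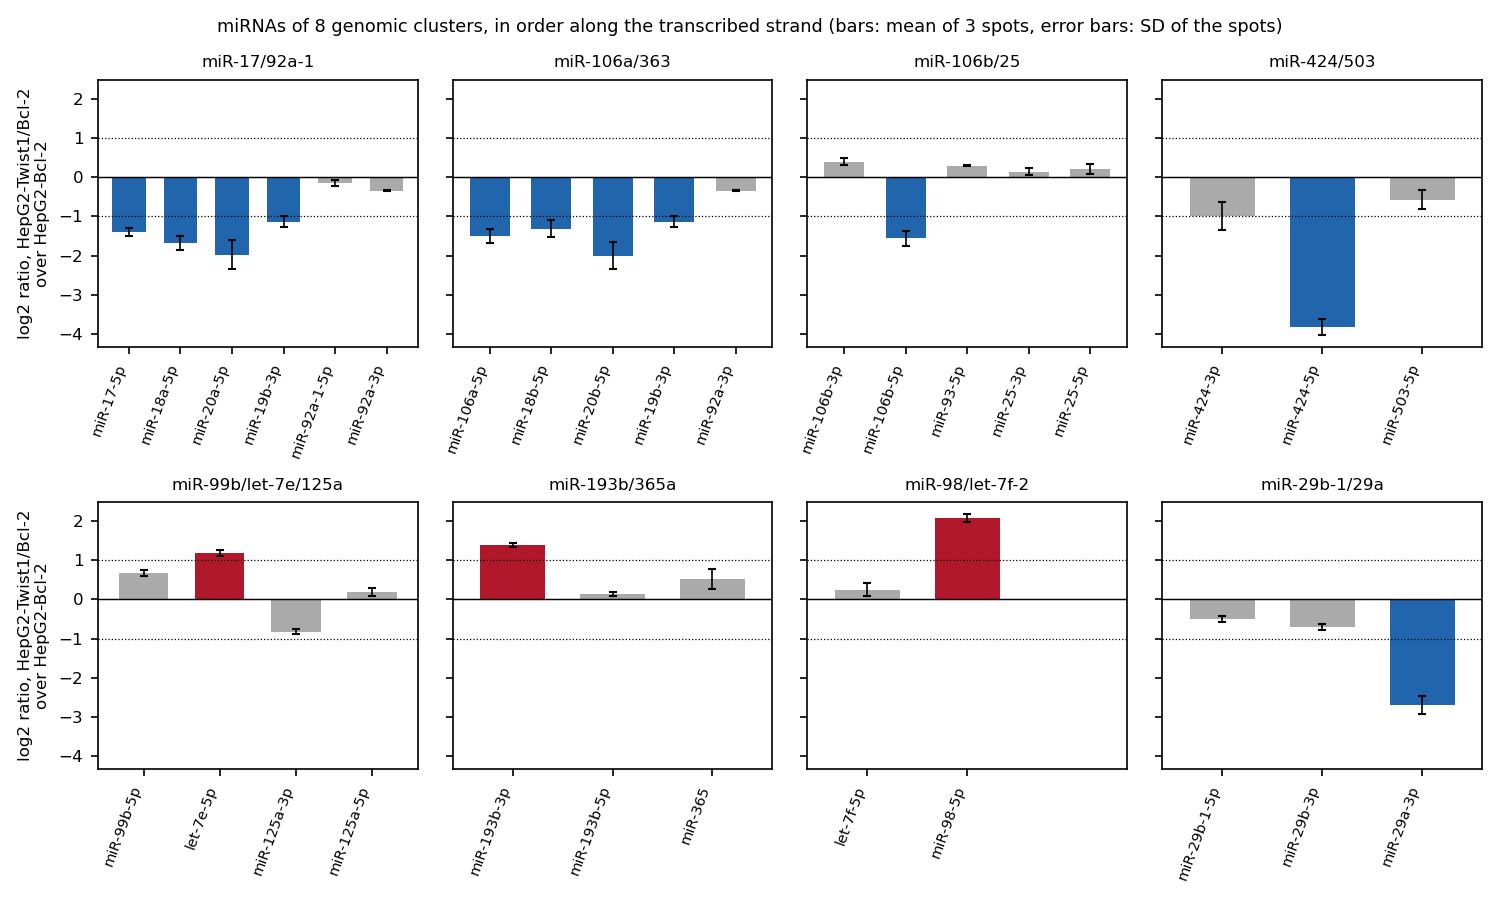
Log2 ratio of HepG2-Twist1/Bcl-2 over HepG2-Bcl-2 for miRNAs of 8 genomic clusters, in order along the transcribed strand, as bars with the SD of 3 spots. Blue bars were called lower, red bars higher and grey bars neither, and dotted lines mark a log2 ratio of 1 in size. In the miR-106b/25 cluster miR-106b-5p is the bar below 0.

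A group here was a hairpin, or several on 1 strand separated by at most 10000 bases. Some groups were thus the arms of 1 hairpin, and miRNAs with several loci, such as miR-9-5p and miR-9-3p, were counted at each. Across the genome, 48 groups held at least 2 of the measured miRNAs, and 15 of them held a called one. None had a call in both directions, and none had all of its measured miRNAs called. In 26 of the 48 all measured miRNAs lay on the same side of 0. The miR-424/miR-503 cluster was of this kind, with miR-424-3p at 54.1 in HepG2-Twist1/Bcl-2 against 153 in HepG2-Bcl-2 (log2 ratio -0.99 ± 0.36) and miR-503-5p at 66.4 in HepG2-Twist1/Bcl-2 against 121 in HepG2-Bcl-2 (-0.57 ± 0.25). Some groups were uneven. miR-192-5p, a p53-induced miRNA, had 155 in HepG2-Twist1/Bcl-2 against 448 in HepG2-Bcl-2 and was lower (-1.29 ± 0.47), whereas its neighbour miR-194-5p had 147 in HepG2-Twist1/Bcl-2 against 152 in HepG2-Bcl-2.

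miR-21-5p, an oncogenic miRNA that represses PDCD4, had the highest intensity of the lower miRNAs. It had 11564 in HepG2-Twist1/Bcl-2 against 27498 in HepG2-Bcl-2, with spot log2 ratios of -1.0, -1.20 and -1.59. The other oncogenic pair on that list did not follow it: miR-221-3p had a log2 ratio of 0.17 ± 0.29 and miR-222-3p of 0.06 ± 0.26. miR-30e-5p, from an EMT-restraining family, had 294 in HepG2-Twist1/Bcl-2 against 786 in HepG2-Bcl-2 (-1.30 ± 0.18) and was the 1 called member of 5. The remaining members of that family had log2 ratios of -0.95 for miR-30a-5p, -0.85 for miR-30c-5p, -0.67 for miR-30d and 0.31 for miR-30b, and the spots of miR-30c-5p spread by an SD of 0.74. miR-126-3p, an endothelial miRNA, had 108 in HepG2-Twist1/Bcl-2 against 290 in HepG2-Bcl-2 (-1.11 ± 0.08).

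Further lower miRNAs at 100 or more in both lines included some without a well known role. miR-3185 had 514 in HepG2-Twist1/Bcl-2 against 2472 in HepG2-Bcl-2 (-2.17 ± 0.20). miR-2861 had 1748 in HepG2-Twist1/Bcl-2 against 4208 in HepG2-Bcl-2 (-1.24 ± 0.02). miR-1908-5p had 164 in HepG2-Twist1/Bcl-2 against 395 in HepG2-Bcl-2 (-1.08 ± 0.16), and was the 1 of 29 lower miRNAs that did not reach 2-fold in the authors' values, where its log2 ratio was -0.89. The remaining lower miRNAs, miR-1181, miR-3131, miR-3182, miR-4258, miR-374a, miR-1231 and miR-148b-3p, had log2 ratios between -1.41 and -1.14. The first 5 of them were not above the empty spots of HepG2-Twist1/Bcl-2. Their folds are therefore bounds, at least 3.975, 3.081, 2.873, 3.739 and 1.743 in that order. The bound of miR-374a thus does not reach 2-fold.

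**Figure D3:**
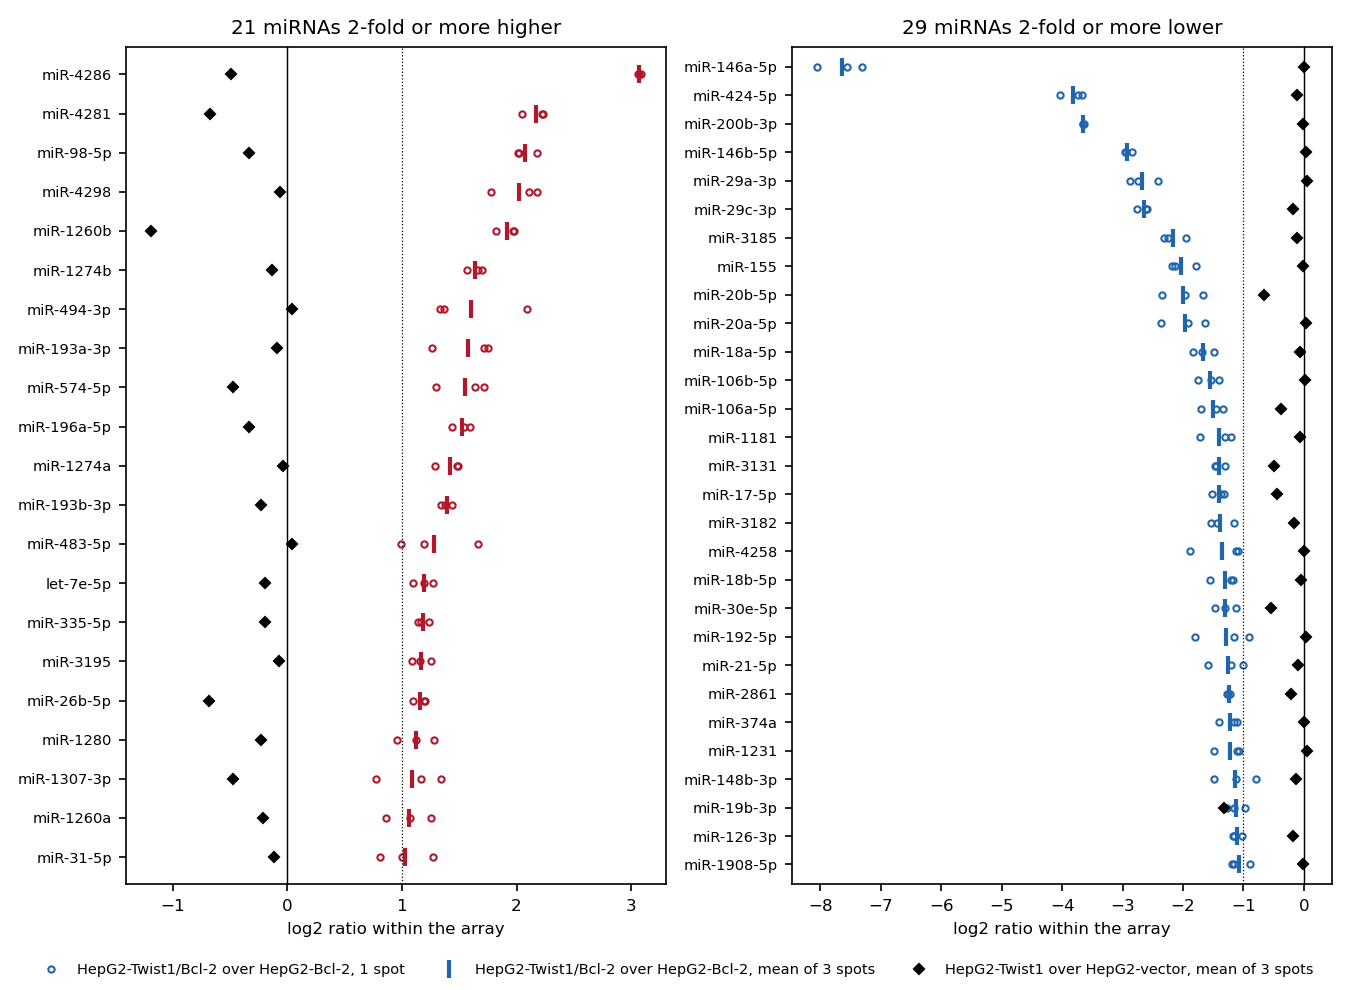
Log2 ratios of the 21 higher and the 29 lower miRNAs, with 3 repeat spots as open circles and their mean as a bar for HepG2-Twist1/Bcl-2 over HepG2-Bcl-2, and the mean of 3 spots for HepG2-Twist1 over HepG2-vector as black diamonds. The panels have different horizontal scales, and apart from miR-19b-3p and miR-1260b no diamond reaches a log2 ratio of 1 in size.

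The next list, named tRNA- and snRNA-derived, held annotated miRNAs whose sequences match fragments of tRNA or of other small RNAs. Several of them were withdrawn in later miRBase releases. Of 10 measured, 6 were higher, where 7.53% of all 279 were, and 0 were lower, where 10.4% of all 279 were. The list's median log2 ratio was 1.09. miR-4286 had 1123 in HepG2-Twist1/Bcl-2 against 89.5 in HepG2-Bcl-2 (log2 ratio 3.07 ± 0.02), or 8.41-fold, which was the highest ratio of the 279. miR-1260b had 6525 in HepG2-Twist1/Bcl-2 against 1692 in HepG2-Bcl-2 (1.92 ± 0.09). miR-1280 had 11768 in HepG2-Twist1/Bcl-2 against 5409 in HepG2-Bcl-2 (1.12 ± 0.16). miR-1274b, miR-1274a and miR-1260a were higher as well, at log2 ratios of 1.64, 1.42 and 1.06. The other 4 were not called. miR-3607-5p had 30.3 in HepG2-Twist1/Bcl-2 against 88 in HepG2-Bcl-2 (-0.80 ± 0.27), miR-1973 was at 0.59 ± 0.16, miR-720 had 6607 in HepG2-Twist1/Bcl-2 against 6660 in HepG2-Bcl-2, and miR-1246, a fragment of U2 RNA, had 15238 in HepG2-Twist1/Bcl-2 against 10977 in HepG2-Bcl-2 (0.46 ± 0.27).

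Beside this list stand the control probes for human 5S rRNA, another small RNA. Of 6 such probes, each at 4 spots, 4 were below -1 in log2 ratio, from -3.77 to -1.16, and the others were at -0.60 and 0.19. On the other array the 6 probes lay between -0.41 and 0.63. Of the other control probes for HepG2-Twist1/Bcl-2 over HepG2-Bcl-2, 4 had log2 ratios from 1.04 to 3.73. The signal of most 5S probes was thus lower in HepG2-Twist1/Bcl-2 than in HepG2-Bcl-2, in the direction opposite to that of the median of the tRNA-like list, and the part of this RNA in the miRNA results was not tested.

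**Figure D4:**
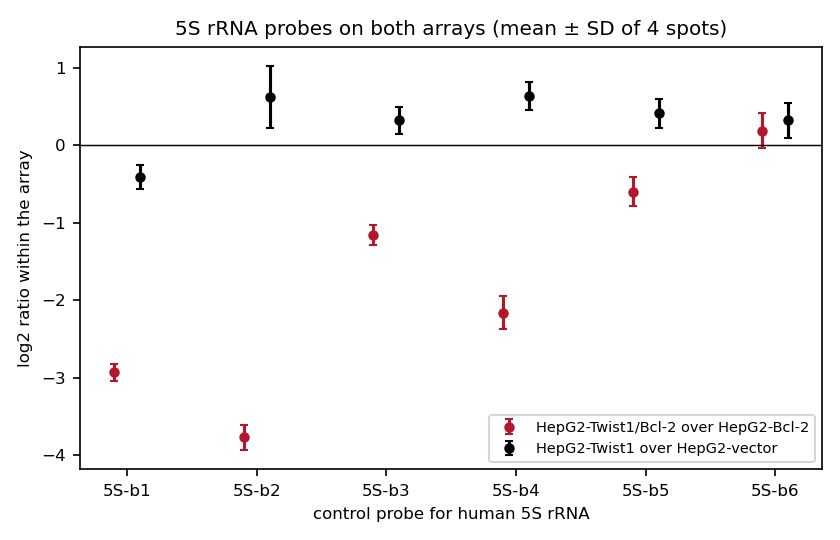
Log2 ratios of the 6 control probes for 5S rRNA, as mean and SD of 4 spots, for HepG2-Twist1/Bcl-2 over HepG2-Bcl-2 (red) and HepG2-Twist1 over HepG2-vector (black). The first 4 red points lie below -1, and the black points lie between -0.41 and 0.63.

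The let-7 family restrains growth and represses HMGA2 and LIN28, and 9 of its members were measured. miR-98-5p, a let-7 member by its seed, had 2938 in HepG2-Twist1/Bcl-2 against 668 in HepG2-Bcl-2 (log2 ratio 2.07 ± 0.10), or 4.19-fold. let-7e-5p had 12746 in HepG2-Twist1/Bcl-2 against 5585 in HepG2-Bcl-2 (1.19 ± 0.08). The other members were not called. Of these, let-7a-5p was the brightest, with 21433 in HepG2-Twist1/Bcl-2 against 18351 in HepG2-Bcl-2 (0.23 ± 0.13), and let-7b-5p had the highest ratio, 0.67 ± 0.15. let-7i-5p stood on the other side of 0, with 13810 in HepG2-Twist1/Bcl-2 against 19826 in HepG2-Bcl-2 (-0.52 ± 0.23). The genomic neighbours of the called members differed from them: let-7f-5p, beside miR-98, was at 0.25, and miR-99b-5p and miR-125a-5p, beside let-7e, were at 0.67 and 0.19.

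miR-26b-5p lies in an intron of CTDSP1 (mature sequence at chr2:218402657-218402677, plus strand) and is the miRNA on which the study centred. It had 3337 in HepG2-Twist1/Bcl-2 against 1466 in HepG2-Bcl-2, with spot log2 ratios of 1.10, 1.19 and 1.20 (mean 1.16 ± 0.05). On the other array it had 550 in HepG2-Twist1 against 914 in HepG2-vector, a log2 ratio of -0.68 ± 0.09. The ratio was thus above 0 for the line with Twist1 in the presence of Bcl-2 and below 0 without it, and in both arrays the higher channel was Cy3. Its relative miR-26a-5p had 5953 in HepG2-Twist1/Bcl-2 against 8008 in HepG2-Bcl-2 (-0.43 ± 0.08).

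Both miR-193 miRNAs with the same seed were higher, where 7.53% of all 279 were. miR-193b-3p, a repressor of cyclin D1, had 265 in HepG2-Twist1/Bcl-2 against 70.7 in HepG2-Bcl-2 (1.39 ± 0.05). miR-193a-3p had 243 in HepG2-Twist1/Bcl-2 against 46.5 in HepG2-Bcl-2 (1.58 ± 0.27), the latter near the brightest empty spot of 43.2. By the authors' values miR-193b-3p, at 199.9 in HepG2-Twist1/Bcl-2 against 29.9 in HepG2-Bcl-2, entered the 279 through HepG2-Twist1/Bcl-2 alone. Its direction thus partly follows from the filter, and so does the count set beside 7.53%. The other arms of these hairpins were not called: miR-193a-5p was at -0.56 ± 0.07 and miR-193b-5p at 0.14 ± 0.05. Over 36 hairpins with both arms measured, 18 had both arms on the same side of 0, and 7 had arms that differed by 1 or more in log2 ratio. Arms with several loci, such as those of miR-9, were counted at each. Besides the miR-193 hairpins, those with such a difference included miR-424, miR-106b, miR-23a, miR-574 and miR-125a. Of the 32 miRNAs that the array named as star, or passenger, arms, 0 were called, where 7.53% of all 279 were higher and 10.4% lower. Their median log2 ratio was -0.11. Some were near the empty spots, such as let-7b-3p with 39.9 in HepG2-Twist1/Bcl-2 against 56.8 in HepG2-Bcl-2. The offset draws such ratios toward 0, so the count does not show unchanged levels.

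Other higher miRNAs had various origins. miR-4281, from chr5:176629449-176629466 (minus strand), had 16716 in HepG2-Twist1/Bcl-2 against 3683 in HepG2-Bcl-2 (2.17 ± 0.10), or 4.49-fold. miR-4298 had 1001 in HepG2-Twist1/Bcl-2 against 203 in HepG2-Bcl-2 (2.02 ± 0.21). miR-196a-5p, from the HOX clusters whose messages it represses, had 1662 in HepG2-Twist1/Bcl-2 against 543 in HepG2-Bcl-2 (1.52 ± 0.07). These were followed by several miRNAs studied for their effect on invasion. miR-31-5p, a repressor of RHOA, had 3529 in HepG2-Twist1/Bcl-2 against 1698 in HepG2-Bcl-2 (1.03 ± 0.23). miR-335-5p, a metastasis suppressor of breast cancer, had 326 in HepG2-Twist1/Bcl-2 against 115 in HepG2-Bcl-2 (1.18 ± 0.05). The 14q32 cluster had 2 measured members of 22 on the array: miR-494-3p had 332 in HepG2-Twist1/Bcl-2 against 70.9 in HepG2-Bcl-2 (1.6 ± 0.43), and miR-409-3p was not called. miR-574-5p, miR-483-5p (from an intron of IGF2), miR-3195 and miR-1307-3p had log2 ratios between 1.09 and 1.55.

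In other families most or all members were not called, and their ratios are given as values. All 5 members of the miR-320 family, whose precursor bypasses Drosha, were above 0, at log2 ratios between 0.66 and 0.90. miR-320a had 6918 in HepG2-Twist1/Bcl-2 against 4333 in HepG2-Bcl-2. The probes of this family have closely similar targets, and cross-hybridisation between them was not tested. All 5 members of the miR-23/27/24 clusters were below 0, between -0.81 and -0.50. miR-23a-3p, the brightest, had 17647 in HepG2-Twist1/Bcl-2 against 26789 in HepG2-Bcl-2. The 6 members of the miR-15/16 family, repressors of BCL2 and of cyclins, were below 0 too, from -3.82 for miR-424-5p to -0.04 for miR-15b-5p, with miR-16-5p at 3688 in HepG2-Twist1/Bcl-2 against 6735 in HepG2-Bcl-2 (-0.86 ± 0.10). miR-103a-3p and miR-107, which share a seed, were at 0.56 and 0.53. The miR-25/92 seed family lay between -0.34 and 0.14. The miR-99/100 and miR-125 families were split, from -0.57 for miR-100-5p and -0.49 for miR-125b-5p to 0.67 for miR-99b-5p, with 0 of 5 called. The medians of the miR-320, miR-23/27/24 and miR-15/16 lists kept their sign under every scaling, except that without normalization, where the median of all 279 moved to 0.78, that of miR-15/16 was 0.29.

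The lists tied to the transgenes or to EMT were mixed. Of 11 measured miRNAs listed as repressors of BCL2, 0 were called, where 7.53% of all 279 were higher and 10.4% lower. Their median log2 ratio was 0.03. The list did not hold miR-15b-5p, miR-424-5p and miR-503-5p of the miR-15/16 family, described above as repressing BCL2, and miR-424-5p was lower. Within this list the 4 miR-181 members lay between 0.03 and 0.33, whereas miR-16-5p and miR-195-5p were at -0.86 and -0.84. In the miR-200 family 1 of 3 measured members was lower, miR-200b-3p, and none of the 3 was above the empty spots of HepG2-Twist1/Bcl-2. By the authors' values all 3 entered the 279 through HepG2-Bcl-2 alone, so this partly follows from the filter. miR-141-3p and miR-429 of this family did not enter, and were not above the empty spots of either line. miR-200a-3p, from the same cluster (chr1:1167104-1167937, plus strand), was at 19.98 in HepG2-Twist1/Bcl-2 against 81.1 in HepG2-Bcl-2 (-0.91 ± 0.12). Of 10 miRNAs described as promoting EMT, 2 were lower, miR-155 and miR-21-5p, and 0 were higher, against the same shares of 10.4% and 7.53% over all 279. Of 5 measured miRNAs listed as restraining it outside the miR-200 family, 1 was higher, miR-335-5p, and 0 were lower. That list held miR-30a-5p (-0.95, not called) but not miR-30e-5p of the same family, which was lower (-1.30). The list linked to Twist1 had 4 measured members with a median of -0.54, and miR-424-5p was the 1 called. Its other members were let-7i-5p, miR-503-5p and miR-10b, the last with 83.4 in HepG2-Twist1/Bcl-2 against 105 in HepG2-Bcl-2. Of 3 measured miRNAs linked to p53, miR-192-5p was lower, and miR-34a-5p had 165 in HepG2-Twist1/Bcl-2 against 185 in HepG2-Bcl-2. The hypoxia list had 1 measured member, miR-26a-5p, and its defining miR-210 was not among the 279.

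Over all measured miRNAs, 92 fell into 32 seed groups of at least 2, and in 22 of the groups all members lay on the same side of 0. The called miRNAs differed in base composition. The median GC content was 57.9% for the 21 higher miRNAs, 43.5% for the 29 lower ones and 52% for the 229 others. Sequences of 18 bases or fewer made up 7 of the 21 higher miRNAs, 2 of the 29 lower ones and 18 of the 229 others. By the study's methods the melting temperatures of the probes were balanced by chemical modification, and the part of base composition and length in the ratios was not tested. On the other array 19 of the 21 higher miRNAs had log2 ratios below 0, from -1.19 to 0.04 with a median of -0.21, and 20 of the 29 lower ones did, with a median of -0.07. Over all 279 miRNAs, 163 were below 0 there.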

How the data were processed

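The authors deposited spot intensity values as scanned for each array, which have no background column, and a table of normalized intensity values, background-subtracted and cyclic LOWESS normalized per the methods, with 1 value per miRNA. The deposited scanner values are medians per spot, with other, uncorrected scales in the channels.

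Here limma's normexp (offset 50) was fitted to the spot intensities, followed by loess within the array (span 0.3, 4 iterations) with 332 control spots at weight 0, in R 4.3.3 with limma 3.58.1; Python 3.11.15 with pandas 2.3.3 and numpy 2.4.6 made the tables. The normalized intensity has the offset taken off, and can fall below 0. The log2 ratio keeps the offset, which draws the ratios of dim miRNAs toward 0. The methods' t-test needs at least 2 samples per line and could not be run. Intensities of different probes are not levels on a common scale. Members and lists were chosen with earlier results of these data known. On the scale used here a value of 32, the members' threshold in the authors' table, lies within the range of the empty spots of both lines. Bounds were therefore set against the brightest empty spot, a choice made after values were seen. The 30 lists comprised families, clusters, EMT, Twist1, BCL2, p53, hypoxia and cell type markers. Named were called miRNAs at 100 or more in both lines or only in 1, the brightest members of each list and of all, and those beside the threshold, with others chosen after their values were seen. Current RefSeq names were given to 230 miRNAs by exact sequence, and 49 kept the array's name. The alternatives were other normalizations and background corrections, the authors' values, other filters on intensity, the median of the spots, and leaving out each repeat spot. The number of arrays limits the precision.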

Additional observations from a re-analysis of the deposited data

Results flagged for a closer look

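For 7 miRNAs at 100 or more in all 4 lines, the ratios of both pairs were at least 0.5 in size, each with its 3 spots on the same side of 0, but opposite in direction, and whether the pairs differ was not tested. Given as log2 ratios, first HepG2-Twist1/Bcl-2 over HepG2-Bcl-2 and then HepG2-Twist1 over HepG2-vector, miR-4281 was at 2.17 and -0.67. miR-1260b was at 1.92 and -1.19, miR-26b-5p at 1.16 and -0.68, miR-1275 at 0.74 and -0.53, and miR-378 at 0.54 and -0.61. let-7i-5p was at -0.52 and 0.53, and miR-638 at -0.72 and 0.51. The lines with Twist1 carried Cy3 with Bcl-2 and Cy5 without it, so presence of Bcl-2, array and dye cannot be told apart in these values.

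Among the control spots, which no comparison of miRNAs used, 4 of 6 probes for 5S rRNA had log2 ratios beyond 1 in size for HepG2-Twist1/Bcl-2 over HepG2-Bcl-2. These were -2.93 for the first, -3.77 for the second, -1.16 for the third and -2.16 for the fourth. Of the other control probes, 4 were beyond 1 in the opposite direction. These were Ctr10-3P at 3.73, Ctr03-3P at 2.09, Ctr03-3M05 at 1.15 and Ctr10-3M05 at 1.04. For HepG2-Twist1 over HepG2-vector, Ctr10-3P was at -1.15.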

How the results depend on the processing

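The counts of 21 higher and 29 lower miRNAs depended most on the scaling. Centring without loess gave 38 higher and 19 lower, and no normalization gave 103 higher and 10 lower, where the median log2 ratio of the 279 was 0.24 and 0.78 in place of -0.09. All 21 higher calls were among the higher ones under both settings, which the upward shift of the ratios favours. With 19 and 10 lower, these settings cannot have kept all 29 lower calls. Subtraction of the median empty spot, which removes the offset and so widens the ratios, gave 50 higher and 67 lower. It included all 50 original calls, which wider ratios favour. At 100 or more in both lines 15 higher and 13 lower calls were left. Leaving out each repeat spot in turn gave 18 to 23 higher and 29 to 35 lower. The authors' values, cyclic loess, the median of the spots and the array without the filter kept both counts within 1.5 times. None of the 50 called miRNAs changed sign under any of these settings. No paired analysis was possible because each line had 1 sample. Dim miRNAs, those near the empty spots, could be called only at large ratios.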
